A study of Homo sapiens with 40 samples.

Results

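The genes described here make the proteins that license origins of DNA replication, open them and copy the DNA. They are 39 named genes, taken as a list of names and not by a measured value. Each was read from 1 probe set of the array, the brightest of those that the platform annotation pairs with that gene alone. All 39 had such a probe set, out of 19775 genes that had one, and all 39 passed the filter on dim probe sets, which left 11853 genes to be tested. A difference is given on the scale of log2(signal + 16), where the added 16 makes the change of a dim gene look smaller than it is.

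In late mitosis and G1, the origin recognition complex together with CDC6 and CDT1 loads the ring-shaped MCM helicase onto DNA, and geminin (GMNN) blocks CDT1 once S phase has begun. The kinase CDC7 with its partner DBF4, and the factors MCM10, CDC45 and GINS, then turn the loaded helicase into a moving fork, where primase, the polymerases, the clamp PCNA and its loader RFC copy the DNA. Many of these genes are transcribed by E2F factors when cells enter S phase, and in prostate cancer cells that depend on the androgen receptor, growth and entry into S phase depend on androgen.

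The arrays measured RNA of LNCaP, a human prostate cancer cell line that responds to androgen. There were 7 LNCaP clones labelled resistant to MDV3100, an antiandrogen also called enzalutamide, with the clone numbers 1, 9, 10, 14, 15, 19 and 24. There were 3 control LNCaP lines labelled sensitive, called control 1 (title D+E-), control 2 (title D+R-) and control 3 (title M+R-) below, and what those letters stand for is not explained. All were grown with 10% serum, seeded for 3 days and then given 10 µM MDV3100 or 0.1% DMSO, its solvent, for 24 h. How the clones were derived is not given in the labels, and each is 1 clone. The groups hold 14 clone arrays in MDV3100, 14 clone arrays in DMSO, 6 control arrays in MDV3100 and 6 control arrays in DMSO, as 2 arrays for each line and treatment, numbered replicate 1 and replicate 2. Whether a replicate number stands for a separate culture is not stated, so a p-value here weighs only the scatter among these arrays, part of which may be technical.

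The lines carried the markers of prostate luminal cells: 6 of the 8 listed could be read and all 6 passed the filter, with KLK3 between 209.5 and 4548.4 units of signal over the arrays. Of the basal keratins, KRT5 did not exceed 8.2 units and KRT14 had a median of 9.35 and a highest value of 28.8 units, and neither passed the filter. The immune marker PTPRC did not exceed 8.6 units. Of the fibroblast list only COL1A1, and of the endothelial list only VWF, passed the filter; the summed fibroblast list lay between 73.9 and 168.5 units on clone arrays and between 102.3 and 352.4 units on control arrays. The summed endothelial list lay between 15.5 and 46.2 units on clone arrays and between 14.3 and 133.2 units on control arrays, and the part of such cells in the results was not tested. Under the drug VWF fell in control lines by 0.43 (adjusted p = 0.0309), and COL1A1 was lower in clones than in control lines in MDV3100, by a log2 difference of -0.61 (limma, adjusted p = 0.0391). As a check of the drug, TMPRSS2, an androgen-induced protease, was at -0.20 ± 0.10 in clones (limma, adjusted p = 0.329) and fell by 1.05 ± 0.15 in control lines (SE, adjusted p = 0.00107). These means hid a split between cultures. In replicate 1, TMPRSS2 was at -1.24 in clone 9, -1.05 in clone 10 and -0.88 in clone 14. The other replicate 1 clones lay from -0.09 to 0.21, and the replicate 2 clones from -0.28 to 0.49. In replicate 2 control lines it was at -1.41 in control 1, 0.10 in control 2 and -0.74 in control 3. Of 4 androgen targets tested, 3 fell in control lines (5.06% of all genes) and 0 in clones (0.464%).

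Replicate 2 arrays did not in general resemble the replicate 1 arrays of the same label. With each gene centred over the arrays, the profile of an array correlated with its own label in the other replicate number at a median r of -0.408 across genes, which are not independent, and 36 of the 40 arrays had their closest match among arrays of their own replicate number. For 0 of the 10 lines was a line's own label the closest replicate 1 match of its replicate 2 culture. The replicate 2 culture labelled clone 1 matched clone 19 of replicate 1 (r = 0.744), the one labelled control 2 matched clone 1 (r = 0.748), and the one labelled control 3 matched clone 15 (r = 0.633). The one labelled control 1 matched control 3 (r = 0.51) more closely than control 1 (r = 0.0956), and the 6 other clones had no match above r = 0.0657. Clones and control lines below are the arrays so labelled, the medians and the main counts are given by replicate number as well, and most counts again without the 3 cultures that matched another label at an r of 0.633 or more. Leaving these out keeps control 2, control 3 and clone 1 in replicate 1 only, while the other lines keep both numbers.

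Under MDV3100 the replication genes were lower as a group, in clones and in control lines, and more of them passed the test in control lines. In clones, the median difference between MDV3100 and DMSO over the 39 genes was -0.22 (replicate 1 alone -0.28, replicate 2 alone -0.14), 4 genes fell and 0 rose, and 38 of the 39 had a negative value. In control lines the median was -0.45 (replicate 1 alone -0.61, replicate 2 alone -0.30), 27 genes fell and 0 rose, and again 38 of the 39 had a negative value. Of all 11853 genes, 0.464% fell and 0.337% rose in clones, 5.06% fell and 5.07% rose in control lines, and the median of all genes was near 0.00 in clones and 0.01 in control lines. A gene is said to rise or fall where limma gave an adjusted p under 0.05, after Benjamini-Hochberg adjustment over all genes, with the line as the replicate (7 clones, 3 control lines). Both groups were in the same fit, so an SE or p of control lines rests on a spread pooled with the 7 clones. It does not measure the spread of the 3 control lines alone. The mean response of the 39 genes had an SD of 0.10 over clones and 0.17 over control lines. In RNA from whole cultures, fewer cells in S phase and less RNA per cell cannot be told apart.

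How many genes passed in control lines depended on how the arrays entered the fit. The 27 became 28 (4.64% of all genes) with each line and replicate number as a block. That block takes each of the 20 pairs of arrays as a replicate, so a line counts more than once. The 27 became 0 when the 2 replicate numbers of a line were treated as equal replicates with no such block. In that fit, 18 of the 39 and 685 of all genes had an unadjusted limma p under 0.05. Replicate 1 alone gave 24 (4.1% of all genes) and replicate 2 alone 0 (0.0422%), with 16 at an unadjusted p under 0.05. Without the 3 cultures that closely matched another label there were 26 (5.59%), and without control 1 there were 7 (0.936%). In clones, the 4 became 3 with that block (0.447%: MCM10, CDCA7 and CDC6), 4 in replicate 1 alone (0.852%), of which 1, MCM10, is among those of the pooled test, and 0 in replicate 2 alone, with 6 at an unadjusted p under 0.05. It was 0 without the 3 cultures, with 27 at an unadjusted p under 0.05. Apart from the 685 above, the share of all genes at an unadjusted limma p under 0.05 is not given here or below. These unadjusted counts are therefore not a result about the members. The clone count was 0 without control 3, clone 10, clone 14 or clone 19, 1 without clone 1, clone 9 or clone 15, 9 without control 1 (0.759% of all genes) and 12 without clone 24 (1.05%). Beside this, an RNA quality measure differed between treatments in replicate 1 control lines: the ratio of 3' to 5' actin signal on replicate 1 arrays of clones was 4.37 ± 0.53 in MDV3100 and 4.06 ± 0.46 in DMSO, against 5.12 ± 1.28 in MDV3100 and 3.79 ± 0.53 in DMSO on those of control lines (SD, n = 7 clones and 3 control lines). Most of this came from control 2, at 6.59 in MDV3100 and 3.18 in DMSO, while control 1 had 4.26 and 4.08 and control 3 had 4.5 and 4.12. Its part in the result was not tested.

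**Figure D1:**
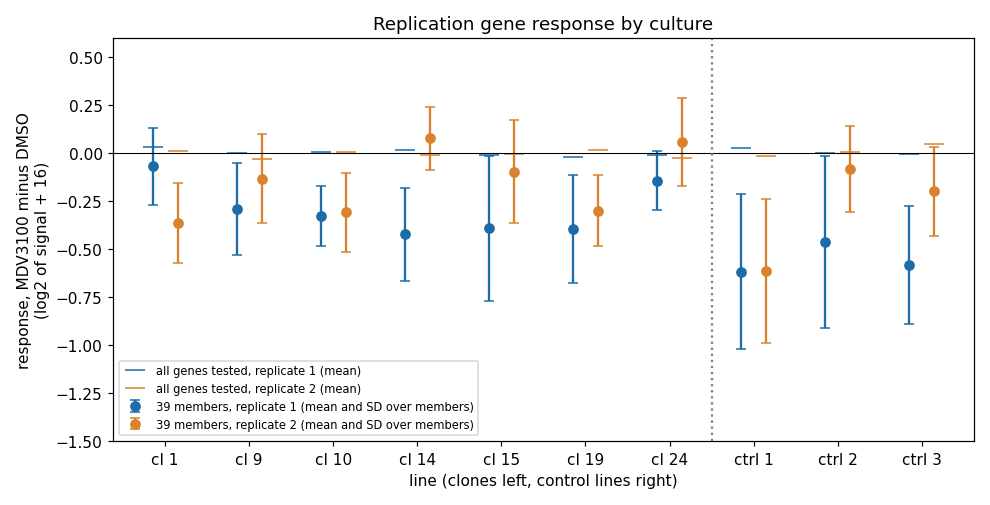
Mean response of the 39 replication genes in each culture, as MDV3100 minus DMSO on the log2(signal + 16) scale, with clones (cl) left and control lines (ctrl) right; points are means, bars are the SD over the 39 genes and short lines are the mean of all genes tested. The cultures labelled control 1 sit near -0.6 in both replicate numbers, while the other control lines sit near 0 to -0.2 in replicate 2.

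By culture, the mean response of the 39 genes in replicate 1 clones was -0.42 in clone 14, -0.40 in clone 19, -0.39 in clone 15, -0.33 in clone 10, -0.29 in clone 9, -0.14 in clone 24 and -0.07 in clone 1. In replicate 1 control lines it was -0.62 in control 1, -0.58 in control 3 and -0.46 in control 2. All 3 control lines therefore lay below all 7 clones in replicate 1. In replicate 2 it was -0.37 in clone 1, -0.31 in clone 10, -0.30 in clone 19, -0.13 in clone 9, -0.10 in clone 15, 0.06 in clone 24 and 0.08 in clone 14. Replicate 2 control lines had -0.61 in control 1, -0.20 in control 3 and -0.08 in control 2. In replicate 2 the control lines and clones overlapped, and control 1 alone lay below every clone.

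The MCM helicase genes encode the subunits of the ring that unwinds DNA at the fork. In clones, 1 of the 6 fell and the mean response of the 6 was -0.22 ± 0.07 (SD, n = 7 lines). In control lines all 6 fell, with a mean response of -0.54 ± 0.19 (SD, n = 3 lines). The fall in control lines was -0.83 on average in replicate 1 and -0.25 in replicate 2. The single-gene values ran from -0.40 for MCM6 to -0.70 for MCM5.

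MCM5 had a signal in clones with a lowest, median and highest value of 80, 110.4 and 194.7 units in MDV3100 and 106.3, 140.45 and 229.3 units in DMSO. In control lines, replicate 1 gave 65.5, 80.7 and 88.3 units in MDV3100 and 144.4, 191.8 and 159.8 units in DMSO, for control 1, control 2 and control 3 in that order. Replicate 2 gave 121.2, 220.1 and 123 units in MDV3100 and 213.6, 216.2 and 201 units in DMSO. In replicate 1 the drug-treated control arrays all lay below the untreated ones, and in replicate 2 the array labelled control 2 did not. MCM5 fell in clones by 0.31 ± 0.06 (adjusted p = 0.033) and in control lines by 0.70 ± 0.09 (SE, adjusted p = 0.00056).

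Of the 39 genes, MCM4 showed the widest gap between replicate numbers in its control response. Its signal in clones ran from 584.7 over a median of 786.05 to 1237.5 units in MDV3100 and from 688.6 over 902 to 1301.5 units in DMSO. In replicate 1 control lines it was 331.2, 420.1 and 586 units in MDV3100 and 897.7, 1029 and 886.1 units in DMSO. Those 3 arrays were among the 4 lowest of the 40, with the drug-treated array labelled clone 1 of replicate 2 (584.7 units). In replicate 2 control lines it was 828.2, 917.7 and 814.9 units in MDV3100 and 901.5, 879.2 and 1099.5 units in DMSO, so that the groups overlapped. The response was -0.16 ± 0.05 in clones (adjusted p = 0.189) and -0.62 ± 0.08 in control lines (SE, adjusted p = 0.000833), where replicate 1 alone gave -1.08 and replicate 2 alone -0.16. MCM4 has 4 probe sets past the filter, and 1 of the others was 0.10 higher under the drug in control lines.

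Of the genes of origin recognition and loading, 0 of 5 fell in clones and 4 of 5 in control lines. CDC6, the loader ATPase, had 51, 131.75 and 368.9 units in clones in MDV3100 and 115.2, 195.25 and 420.2 units in DMSO (lowest, median and highest). In control lines it had 109.8, 162.3 and 70.4 units in replicate 1 MDV3100 and 213.5, 213.3 and 186.4 units in DMSO. In replicate 2 control lines it had 85.3, 159.4 and 136.6 units in MDV3100 and 222.6, 232 and 145.2 units in DMSO. CDC6 was lower under the drug in all 6 control cultures and in 12 of the 14 clone cultures, the exceptions being clones 14 and 24 of replicate 2. Its response was -0.50 ± 0.11 in clones, where the adjusted p was 0.0602 (0.0467 with the replicate block), and it fell by 0.71 ± 0.18 in control lines (SE, adjusted p = 0.0219). In replicate 2, clone 9 and clone 15 reached -1.14 and -1.18, close to the -1.24 of control 1, although their mean response over the 39 genes was -0.13 and -0.10. The size of the clone fall depended on the probe set. Another CDC6 probe set past the filter, of similar mean signal (167.48 against 187.8 units), gave -0.23 in clones and -0.63 in control lines.

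ORC1, the largest subunit of the origin recognition complex, was a dim gene, with 48.3, 66.25 and 102.4 units in clones in MDV3100 and 52.5, 83.6 and 132.1 units in DMSO. In control lines it had 25, 18.7 and 54.7 units in replicate 1 MDV3100 and 83.3, 73.9 and 81 units in DMSO. In replicate 2 control lines it had 44.4, 117.7 and 64 units in MDV3100 and 94, 79.7 and 86.2 units in DMSO. The array labelled control 2 was thus the lowest of all in replicate 1 and above its DMSO array in replicate 2. ORC1 was at -0.20 ± 0.08 in clones (adjusted p = 0.248) and fell by 0.64 ± 0.12 in control lines (SE, adjusted p = 0.00564). CDT1, which brings the helicase to the origin, had the smallest control response of this group and was at -0.32 ± 0.09 in clones (adjusted p = 0.115) and -0.29 ± 0.14 in control lines (SE, adjusted p = 0.204).

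Among the 7 genes of helicase activation, 1 fell in clones and 5 in control lines. MCM10, which helps the helicase to start, had 239, 370.75 and 516.4 units in clones in MDV3100 and 367.2, 450.55 and 635.5 units in DMSO. In control lines it had 236.9, 336.3 and 454.9 units in MDV3100 and 433.2, 514.5 and 610.6 units in DMSO (lowest, median and highest of 6 arrays). MCM10 fell in both: by 0.34 ± 0.06 in clones (adjusted p = 0.0363) and by 0.60 ± 0.10 in control lines (SE, adjusted p = 0.00244).

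CDC45, which travels with the helicase, had 132.4, 255.85 and 387.6 units in clones in MDV3100 and 199.4, 282.4 and 419.8 units in DMSO. In control lines it had 140.1, 183.45 and 287.1 units in MDV3100 and 256.8, 287.55 and 335.9 units in DMSO. Of the 6 control arrays in MDV3100, 1 reached the DMSO range, control 2 of replicate 2 at 287.1 units. CDC45 was at -0.22 ± 0.07 in clones (adjusted p = 0.133) and fell by 0.61 ± 0.10 in control lines (SE, adjusted p = 0.00281). GINS2 and GINS3, subunits of the GINS complex, also fell in control lines, by 0.56 and 0.48, as did DBF4 by 0.49, while GINS1 (-0.35, adjusted p = 0.0653) and CDC7 (-0.25, adjusted p = 0.135) did not pass.

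Among the 11 genes of polymerases, clamp and clamp loader, 1 fell in clones and 7 in control lines. RFC3, a clamp loader subunit, had 592.1, 1053 and 1472.6 units in clones in MDV3100 and 734.1, 1154.5 and 1717.7 units in DMSO. In control lines it had 603.2, 781.45 and 922.9 units in MDV3100 and 868.9, 1222.6 and 1369.8 units in DMSO, so that the control ranges overlapped, through the replicate 2 arrays. RFC3 was at -0.20 ± 0.05 in clones (adjusted p = 0.0587) and fell by 0.55 ± 0.07 in control lines (SE, adjusted p = 0.000676). POLA2, a subunit of the polymerase that lays down primers, fell by 0.23 ± 0.05 in clones (adjusted p = 0.0459) and by 0.52 ± 0.07 in control lines (SE, adjusted p = 0.00107). POLE2, RFC4, PRIM1, RFC2 and POLA1 also fell in control lines, by 0.53, 0.50, 0.45, 0.42 and 0.39. PCNA itself was at -0.25 ± 0.10 in control lines (SE, adjusted p = 0.107), with replicate 1 arrays of control 1 and control 2 above their DMSO arrays.

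The catalytic subunits POLE and POLD1 and the clamp loader subunit RFC5 were near 0. POLE had 29.7, 47.95 and 76 units in clones in MDV3100 and 30.1, 52 and 60.8 units in DMSO, against 41.8, 53.05 and 80.6 units in MDV3100 and 48.6, 56.95 and 70.2 units in DMSO in control lines. Its response was -0.01 ± 0.06 in clones and -0.05 ± 0.10 in control lines (SE, adjusted p = 0.946 and 0.794). RFC5 was the 1 member with a positive value, 0.04 in clones and 0.06 in control lines, and this rested on the choice of probe set: with the mean of its 3 probe sets it fell by 0.31 in control lines (adjusted p = 0.0109). Over the 26 other probe sets of members that passed the filter, 25 were negative in clones and 25 in control lines.

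Of the genes that join Okazaki fragments, FEN1, the flap nuclease, was at -0.18 ± 0.05 in clones (adjusted p = 0.0843) and fell by 0.47 ± 0.07 in control lines (SE, adjusted p = 0.00172). Its signal in clones was 813.4, 1366.4 and 1787.2 units in MDV3100 and 1028.1, 1486.3 and 1892.5 units in DMSO, against 881.4, 1150.4 and 1609.2 units in MDV3100 and 1404, 1609.3 and 1850.9 units in DMSO in control lines. The ligase LIG1, a dim gene, was at -0.23 in clones and -0.28 in control lines and passed in neither. Of the 4 genes of nucleotide supply, 0 fell in clones and TYMS, thymidylate synthase, fell in control lines by 0.39 ± 0.09 (SE, adjusted p = 0.0138). RRM2 and TK1 missed the threshold in control lines (-0.34, adjusted p = 0.0574, and -0.27, adjusted p = 0.0575), and RRM1, which pairs with RRM2 in ribonucleotide reductase, was at -0.15 (adjusted p = 0.197). The other probe sets of these genes gave larger falls in control lines. They were at -0.51 for RRM2 (mean signal 1574.2 against 1588.8 units), -0.34 for TK1 and -0.48 for RRM1.

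The last group holds proteins that protect the fork or act on newly copied chromatin. CLSPN (claspin, which links a stalled fork to the checkpoint kinase) gave the largest control response of the 39 genes. In replicate 1 clones its signal was 326.1, 183.2, 141.3, 104.6, 118, 93.3 and 193.3 units in MDV3100 and 279, 156.6, 179.5, 237.3, 170.7, 133.1 and 200.7 units in DMSO, in order of clone number. In replicate 1 control lines it was 68, 120.7 and 93.6 units in MDV3100 and 193.3, 301.3 and 200.6 units in DMSO. All 3 control arrays in MDV3100 lay well below their DMSO arrays, as did clone 14, while clones 1 and 9 lay above theirs. In replicate 2 clones it was 127.1, 130.3, 170.2, 227.7, 170.1, 164.8 and 234.8 units in MDV3100 and 238.7, 170.6, 210.8, 148.2, 215.1, 169.4 and 133.2 units in DMSO. In replicate 2 control lines it was 106.2, 242.5 and 174 units in MDV3100 and 276.3, 285.3 and 279.2 units in DMSO. CLSPN was lower under the drug in all 6 control cultures and in 10 of the 14 clone cultures.

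The response of CLSPN was -0.17 ± 0.09 in clones (adjusted p = 0.358) and a fall of 0.94 ± 0.13 in control lines (SE, adjusted p = 0.00107). Of the rest of this group, CDCA7, which recruits a chromatin remodeller, fell by 0.44 ± 0.09 in clones (adjusted p = 0.0438) and by 0.51 ± 0.14 in control lines (SE, adjusted p = 0.0315). CDCA7 and RFC3 were the members that were lower under the drug in all 14 clone cultures, as were 0.127% of all genes. UHRF1, which maintains DNA methylation after replication, fell in control lines by 0.50 ± 0.12 (SE, adjusted p = 0.0202), and TIMELESS, a fork protection subunit, was at -0.09 (adjusted p = 0.494). In all, 12 of the 39 members were lower under the drug in each of the 6 control cultures, against 4.56% of all genes.

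**Figure D2:**
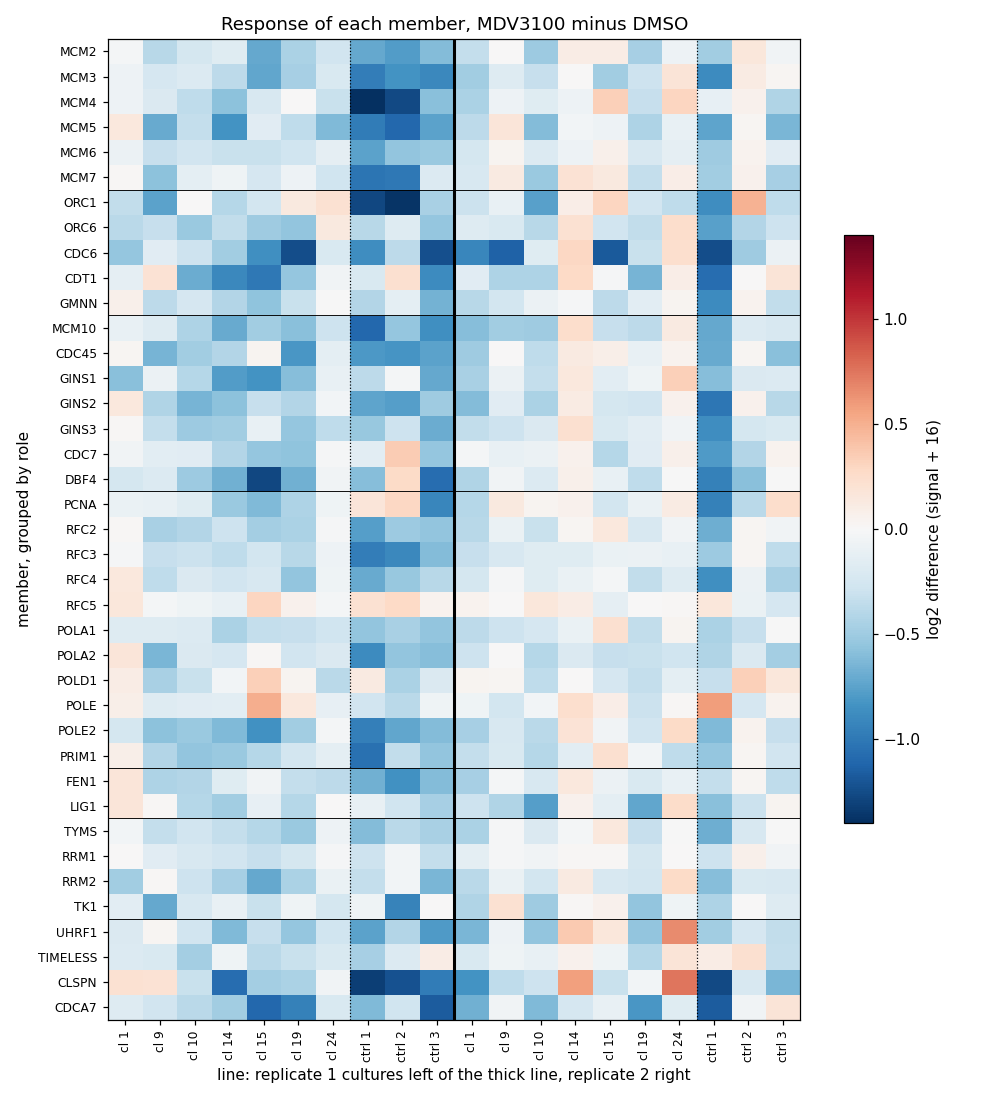
Response of each of the 39 genes in each culture, with genes in rows grouped by role, replicate 1 cultures left of the thick line and replicate 2 right, and clones left of control lines within each; the colour gives MDV3100 minus DMSO on the log2(signal + 16) scale, blue for lower under the drug. The replicate 1 control lines and control 1 of replicate 2 hold the darkest blue columns.

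**Figure D3:**
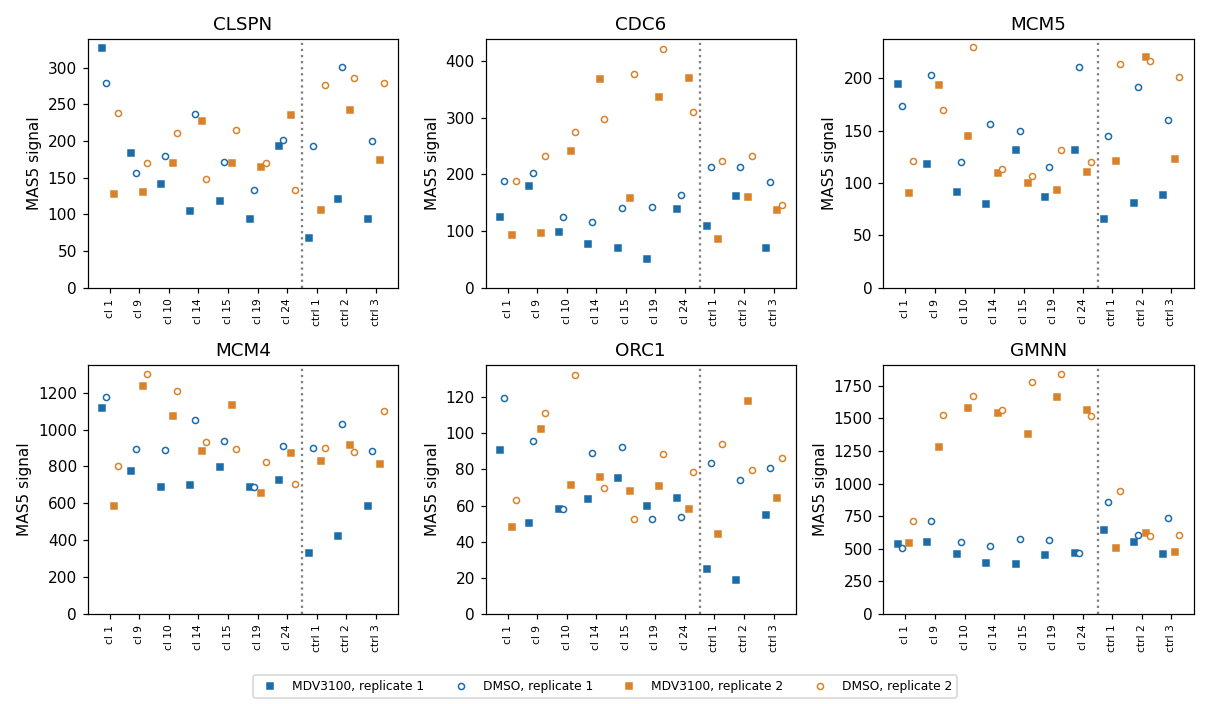
Deposited MAS5 signal of 6 of the genes on all arrays, with clones (cl) left and control lines (ctrl) right; filled squares are MDV3100, open circles are DMSO, and the colour gives the replicate number. CLSPN and MCM4 drop under the drug in replicate 1 control lines, and GMNN is above 1200 units in replicate 2 of clones 9 to 24 only.

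The promoters of the 4 members with the largest control response that have an entry in the RefSeq table follow, because they show where short E2F-type words lie in genes that fell together. MCM5 and MCM4 have no entry in it. Each window runs from 250 bases before to 50 after a RefSeq start on GRCh38.p14, is written in the direction of the gene, and has in capitals the matches to TTCCCGC or TTCCCGG or TTCGCGC or TTCGCGG or TTGCCGC or TTGCCGG or TTGGCGC or TTGGCGG on either strand. The windows are CLSPN chr1:35769929-35770228 (minus strand), CDC6 chr17:40287629-40287928 (plus strand), ORC1 chr1:52404374-52404673 (minus strand) and CDC45 chr22:19479670-19479969 (plus strand).
CLSPN: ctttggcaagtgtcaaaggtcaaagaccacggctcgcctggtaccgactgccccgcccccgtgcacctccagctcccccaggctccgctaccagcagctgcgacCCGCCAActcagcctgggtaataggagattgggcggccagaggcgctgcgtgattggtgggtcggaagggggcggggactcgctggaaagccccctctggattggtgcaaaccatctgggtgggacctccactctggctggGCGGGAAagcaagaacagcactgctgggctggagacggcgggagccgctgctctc
CDC6: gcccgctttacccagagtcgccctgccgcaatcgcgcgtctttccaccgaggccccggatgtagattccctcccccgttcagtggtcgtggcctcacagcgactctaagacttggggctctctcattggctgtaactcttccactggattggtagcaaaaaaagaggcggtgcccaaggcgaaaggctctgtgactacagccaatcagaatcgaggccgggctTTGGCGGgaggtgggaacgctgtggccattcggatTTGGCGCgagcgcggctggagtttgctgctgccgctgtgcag
ORC1: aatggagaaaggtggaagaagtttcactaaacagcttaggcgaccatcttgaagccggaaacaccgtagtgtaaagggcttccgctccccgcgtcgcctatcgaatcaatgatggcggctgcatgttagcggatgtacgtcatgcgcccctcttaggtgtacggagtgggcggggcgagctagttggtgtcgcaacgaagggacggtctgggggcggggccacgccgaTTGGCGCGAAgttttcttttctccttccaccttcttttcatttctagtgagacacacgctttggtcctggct
CDC45: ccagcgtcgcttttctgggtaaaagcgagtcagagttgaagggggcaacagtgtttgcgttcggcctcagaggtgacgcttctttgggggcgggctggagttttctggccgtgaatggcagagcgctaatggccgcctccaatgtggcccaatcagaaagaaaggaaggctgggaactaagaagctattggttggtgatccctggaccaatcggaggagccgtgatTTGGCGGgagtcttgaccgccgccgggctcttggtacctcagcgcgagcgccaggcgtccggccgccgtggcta

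CLSPN has 2 matches, the second of them reaching the start, CDC6 has 1 on each side of the start, ORC1 has 2 that overlap, and CDC45 has 1. Such words were in 31 of the 37 member promoters in the table and in 23.8% of all 27305 promoters of the same length. They were in 22 of the 25 members that fell in control lines and in 9 of the 12 that did not pass. The set was widened after a first search with TTCCCGC or TTCGCGC or TTGCCGC or TTGGCGC had left CDC45 without a match; that first search found 28 of the 37 members and 13.1% of all promoters. CCAAT was in 20 of the 37 members and 35.7% of all promoters, and TTTGAA in 2 of the 37 and 15.4%. A match is a description of letters and not evidence of binding.

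The difference in response between clones and control lines was next tested itself, as an interaction in the same fit. It was positive in 35 of the 39 genes, meaning a smaller fall in clones, with a median of 0.21 (replicate 1 alone 0.28, replicate 2 alone 0.11). CLSPN alone passed, with 0.76 ± 0.16 (SE, adjusted p = 0.0421), its value being 0.89 for replicate 1 and 0.63 for replicate 2, and 0.304% of all genes passed as higher. Another CLSPN probe set passed the filter, a dim one with a mean signal of 12.977 units. That probe set was at -0.12 in clones and -0.14 in control lines. With the replicate block the adjusted p of CLSPN was 0.165 and 0 members passed, where 12 had an unadjusted p under 0.05. It also missed the threshold without control 1, control 3 or any of clones 9, 10, 14, 15 and 19, each of which left 0 members. Replicate 1 alone and replicate 2 alone gave 0 members by limma, with 15 and 0 at an unadjusted p under 0.05. Without the 3 cultures that closely matched another label, 6 members passed (0.785% of all genes): MCM3, MCM4, MCM5, CDC45, RFC3 and CLSPN. Control 2 and control 3 were then replicate 1 only. The mean response of control lines was -0.56 in replicate 1 and -0.30 in replicate 2, so the 6 cannot be told apart from replicate number. In the main fit MCM4 came next after CLSPN, with 0.46 ± 0.10 (SE, adjusted p = 0.0531), of which replicate 1 gave 0.83 and replicate 2 gave 0.10. In the mean of both replicate numbers, all 7 clones lay above all 3 control lines for MCM4, MCM5, MCM6, RFC3, POLA2, FEN1 and CLSPN, that is for 7 of the 39 members and 2.54% of all genes. For CDC6 the difference was 0.21 ± 0.21 (SE, adjusted p = 0.675) and for CDT1 it was -0.03 ± 0.17 (SE, adjusted p = 0.959). With the probe sets used, the difference for these loading factors lay about 1 SE or less from 0. The other CDC6 probe set gave a wider gap, with -0.23 in clones and -0.63 in control lines.

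**Figure D4:**
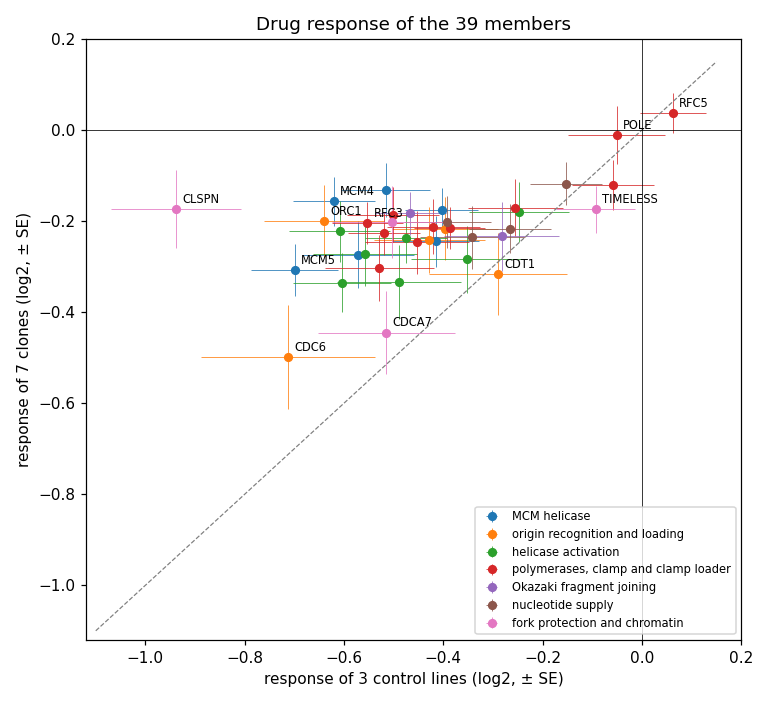
Response of each of the 39 genes in clones (vertical axis) against that in control lines (horizontal axis), both MDV3100 minus DMSO on the log2(signal + 16) scale, with bars for 1 SE from limma and colours for roles; the dashed line marks equal response. Most genes lie above the line, CLSPN farthest from it, and CDC6 and CDCA7 closest to the bottom.

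The levels of the members were compared next, clones against control lines within each treatment. In DMSO, 0 of the 39 passed in either direction, where 11 had an unadjusted p under 0.05, 0.118% of all genes passed, and the median difference of clones from control lines was 0.07 (replicate 1 alone -0.07, replicate 2 alone 0.19). The 11 may lie near the share of all genes at that unadjusted threshold, which is not given. Without clone 1, 8 passed as higher in clones (8.88% of all genes) and CLSPN as lower (9.06%). The mean level of the 39 genes in DMSO was 8.97 ± 0.09 in clones and 8.92 ± 0.05 in control lines (log2, SD, n = 7 and 3 lines). The average hid a split between replicate numbers. In replicate 2 the clones 9 to 24 stood at 9.09 to 9.35, the culture labelled clone 1 at 8.77 and the control lines at 8.88 to 9.03, while in replicate 1 the clones stood at 8.57 to 9.01 and the control lines at 8.84 to 8.92.

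GMNN, the inhibitor of CDT1, showed this split plainly. In replicate 1 DMSO its signal ran from 470.7 to 709.8 units in clones and from 606.6 to 862 units in control lines. In replicate 2 DMSO it ran from 1519.9 to 1836.2 units in clones 9 to 24, with 716.6 units in the culture labelled clone 1, and from 597.2 to 942.8 units in control lines. The difference in DMSO was -0.38 in replicate 1 and 1.05 in replicate 2, a change of sign, and in replicate 2 alone it passed (adjusted p = 0.037).

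Under MDV3100 the members were on the whole higher in clones than in control lines. The median difference was 0.29 (replicate 1 alone 0.19, replicate 2 alone 0.29), 36 of the 39 were positive, and 9 passed as higher, as did 4.7% of all genes: RFC4, PRIM1, GINS2, GMNN, RFC2, MCM3, MCM4, POLE2 and RFC3. With the replicate block 7 passed (7.18% of all genes), without GMNN (adjusted p = 0.0734) and POLE2 (adjusted p = 0.058). For levels that block is the replicate number as a term of the fit, with the arrays of a line treated as correlated. Without the 3 cultures that closely matched another label 17 passed (8.74%). Control 2 and control 3 were then replicate 1 only. The mean level of control lines under the drug was 8.32 in replicate 1 and 8.65 in replicate 2. The 17 therefore cannot be told apart from replicate number. Replicate 1 alone gave 3 (5.53%), and replicate 2 alone gave 6 as higher (7.2%) and POLE as lower (12.4%). Of the 9, 2 were among those of replicate 1 alone and 4 among those of replicate 2 alone. The number was 0 without control 1 or control 3, 1 without clone 15, 2 without clone 9, 3 without control 2 or clone 14, 4 without clone 10 and 5 without clone 19. The mean level of the 39 genes under the drug was 8.75 ± 0.12 in clones and 8.49 ± 0.16 in control lines (log2, SD, n = 7 and 3 lines).

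RFC4, a clamp loader subunit, had 540.4, 887.1 and 1480.9 units in clones in MDV3100 against 511.2, 597.95 and 947.4 units in control lines, a difference of 0.58 ± 0.12 (SE, adjusted p = 0.0221) that was 0.33 by replicate 1 and 0.83 by replicate 2. PRIM1, the catalytic subunit of primase, had 245, 386.4 and 576.5 units in clones against 168.2, 256.8 and 405.7 units in control lines, a difference of 0.53 ± 0.13 (SE, adjusted p = 0.0294) that was nearly equal in the replicate numbers, at 0.58 and 0.48. GINS2 had 231.6, 434.2 and 730.1 units in clones against 226.4, 261.75 and 586.7 units in control lines, a difference of 0.52 ± 0.13 (SE, adjusted p = 0.0314). In DMSO the clone medians were also above those of control lines. They were 994.95 against 904.3 units for RFC4, 469.55 against 369.5 units for PRIM1 and 502.2 against 442.75 units for GINS2. In MDV3100 the ranges of clones and control lines overlapped for all 3 genes. RFC2 (0.48) and MCM3 (0.45) were likewise positive in both replicate numbers, whereas GMNN (0.51) was -0.24 in replicate 1 and 1.27 in replicate 2.

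**Figure D5:**
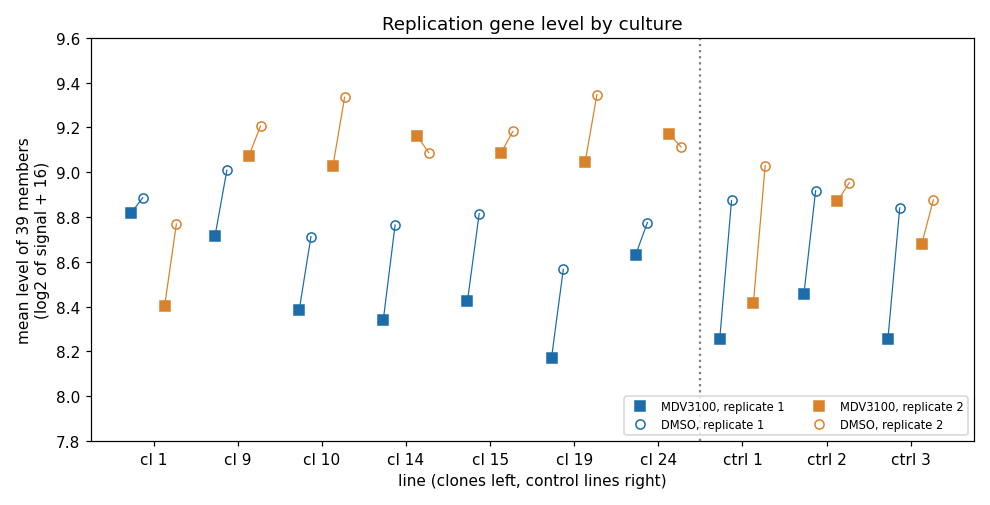
Mean level of the 39 genes on each array, as the mean of log2(signal + 16), with clones (cl) left and control lines (ctrl) right; filled squares are MDV3100, open circles are DMSO, and a line joins the arrays of a culture. Clones 9 to 24 of replicate 2 lie above 9.0 in both treatments, and the culture labelled clone 1 in replicate 2 lies at 8.40 in MDV3100.

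Other genes of DNA replication that are not among the 39 are given next. Of 35 tested, 1 fell in clones and 14 in control lines, with medians of -0.14 in clones and -0.28 in control lines. CHAF1A, the large subunit of the histone chaperone that loads histones behind the fork, had the largest value, -0.76 ± 0.10 in control lines (SE, adjusted p = 0.000573), and its difference between clones and control lines passed at 0.61 ± 0.11 (SE, adjusted p = 0.0339). WDHD1, which ties the primase polymerase to the helicase, fell by 0.73 and DSCC1, of an alternative clamp loader, by 0.61 in control lines. POLD3, a polymerase delta subunit, fell in clones by 0.26 and in control lines by 0.51. Of the same 35 genes, 7 were higher in clones than in control lines under the drug, led by POLE4 at 0.71 ± 0.13 (SE, adjusted p = 0.016).

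Among 27 tested regulators of the G1 to S transition, 1 fell in clones and 7 in control lines, and 1 rose in control lines. E2F2, an activating E2F factor, fell by 0.59 ± 0.09 in control lines (SE, adjusted p = 0.00172), and E2F1 fell by 0.52 and E2F8 by 0.43. CDC25A, the phosphatase that activates CDK2, fell by 0.30 ± 0.06 in clones (adjusted p = 0.042) and by 0.56 ± 0.09 in control lines (SE, adjusted p = 0.00242). RBL2, a pocket protein that represses E2F targets in resting cells, rose by 0.66 ± 0.12 in control lines (SE, adjusted p = 0.00519). Most of this came from replicate 1, where RBL2 was at 1.245 in control 1, 1.80 in control 2 and 0.02 in control 3. In replicate 2 it was at 0.04, 0.32 and 0.52 in the same order. Its signal was 257.3, 419 and 920.1 units in clones in MDV3100 and 286.3, 399.15 and 925.5 units in DMSO, against 335.6, 425.95 and 1110.7 units in MDV3100 and 271.3, 344.9 and 458 units in DMSO in control lines. The difference in response of RBL2 was -0.73 ± 0.15 (SE, adjusted p = 0.0375), with -1.08 in replicate 1 and -0.38 in replicate 2.

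Line by line, with the replicate numbers as the only repeats, 2 members passed in control 1, against 0.548% of all genes lower there. These were RFC4, which fell by 0.78 (adjusted p = 0.0353), and PRIM1, which fell by 0.79 (adjusted p = 0.0483). In the other 9 lines 0 members and 0 genes passed, where up to 17 members, in control 3, had an unadjusted p under 0.05.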

How the data were processed

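Total RNA was amplified, biotin-labelled and read on 1-colour expression arrays, per the labels' protocols. The deposited intensity values are linear MAS5 signals, per the submitters' processing notes; the MAS5 version is not given in the sources used here. The 2%-trimmed mean of each array is 150, so the authors' scaling fixed the overall brightness, and no signal gives an absolute amount. Median signals lay between 10.7 and 18.4 units; precision is limited by how few arrays each group has. From these, log2(signal + 16) was taken and probe sets with a mean under 4.815 (about 12.1 units) were left out, which kept 27338 of 54675. The annotation pairs 41097 probe sets with 1 gene, 1801 with several and 11777 with none. The brightest single-gene probe set stood for a gene.

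Each line's response was the mean over both replicate numbers of MDV3100 minus DMSO, and limma 3.58.1 in R 4.3.3 fitted all 11853 genes over 10 lines, with Benjamini-Hochberg adjustment. Levels were fitted on line means, and single lines on 20 responses by line and replicate number. A p-value from this fit rests on 7 clones and 3 control lines, whose spread was pooled even where the p-value concerns only 1 of the groups. The scripts were tested on simulated data. This form was chosen knowing that it calls more genes than one with arrays as replicates and the line as a block. The members and gene lists were likewise chosen with earlier results of these data known. Within a line, the MDV3100 and DMSO arrays of 1 replicate number deviated together from their group means (r from 0.479 to 0.874 over 20 pairs), so the numbers pair the treatments.

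All 39 members are accounted for. Values by array or group are given for the 6 members with the largest absolute difference among those that passed in each comparison, and for the 2 largest and the smallest control response in each role. Alternatives covered the added constant, the filter, the normalization, the probe set, the variance model, the replicate numbers, the lines and the blocks. Promoters are from RefSeq, GRCh38.p14. Python 3.11.15, pandas 2.3.3, numpy 2.4.6 and matplotlib 3.10.9 were used.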

Additional observations from a re-analysis of the deposited data

Results flagged for a closer look

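CLSPN differed in response between clones and control lines by 0.7642 on the log2 scale (limma, adjusted p = 0.0421), the difference itself being what was tested. Its other probe set past the filter, a dim one, was at -0.12 in clones and -0.14 in control lines. The mean MDV3100 level of the 39 genes in replicate 2 clones was 8.403 in the culture labelled clone 1, far from the nearest other clone at 9.026 and from the highest at 9.171. That culture is 1 of the 3 in replicate 2 that closely matched another label of replicate 1. The RFC4 response of clone 19 was -0.4452, against -0.1893 in the nearest other clone. The POLE2 response of clone 24 was 0.1202, against -0.2146 in the nearest. These single clones stood apart by Dixon's test, which was run on 48 groups and by chance marks about 5% of them.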

How the results depend on the processing

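The number of members that fell in control lines (27) was 0 with the line as a block and no replicate block, and from 0 to 29 when a replicate number or a line was left out. It was 31 with the mean of a gene's probe sets. In clones (4) it was 0 with an added constant of 4, with no filter, with an intensity trend, without the 3 cultures that closely matched another label and with the line as a block, 2 with quantile normalization or median centring, 13 with a constant of 64, and from 0 to 12 when a replicate number or line was left out. For the difference (1) it was 0 with a constant of 4, no filter, mean of probe sets, intensity trend or either block (the replicate block included), 2 with quantile normalization, 3 with a constant of 64, 6 without the 3 cultures, and from 0 to 1 with a replicate number or line left out. In DMSO (0) the range was 0 to 9, the 9 without clone 1. Under MDV3100 (9) it was 5 with no filter, 17 without the 3 cultures, 4 with the line as a block, and from 0 to 13 with a replicate number or line left out. For single lines (2) it was 1 with a constant of 4, no filter, quantile normalization or median centring, 11 with the mean of probe sets and 0 with the trend. The mean DMSO level difference of the 39 genes ran from -0.08756 (without replicate 2) to 0.1954 (without replicate 1), and that under MDV3100 was 0.4274 without the 3 cultures. Without those cultures, control 2 and control 3 were replicate 1 only. The cause of these changes was not tested. Apart from the shares given in the results above, the share of all genes called under these alternatives is not given here. A higher or lower count in this paragraph is therefore not by itself a result about the members.

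Of 1936 values for single members under an alternative, 1633 kept direction and call, 248 lost the call, 43 gained one and 12 changed sign. In control lines, RFC5 was -0.3102 with the mean of probe sets and from -0.05731 to 0.1831 by replicate number, POLD1 from -0.1721 to 0.05574, and POLE from -0.2336 to 0.1308 (0.07541 without control 2). In clones, RFC5 was -0.005057 with quantile normalization and -0.1176 with the mean of probe sets, and POLE was 0.01808 with median centring and from -0.06302 to 0.02256 with a line or replicate number left out. GMNN under MDV3100 was -0.2449 without replicate 2 and 1.266 without replicate 1. The replicate block changed no other count by over 1.5 times. Members with a mean signal of about 50 units or less, such as LIG1, POLD1 and POLE, lie nearer the filter, where the added constant shrinks differences.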
